A study of Mus musculus with 12 samples.

Results

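The Hox genes are the 39 genes of the deposited table whose name is Hoxa, Hoxb, Hoxc or Hoxd followed by a number, out of 23359 genes in all. They were chosen by name alone, and all 39 have a row of their own. Hoxa has 11 of them, Hoxb 10, Hoxc 9 and Hoxd 9. RNA was measured in 12 skin samples from C3H/HeJ mice, with 3 libraries for each of 4 groups. One group is normal skin. Fibrotic skin was taken at 6 and at 20 weeks, and the fourth group is skin at 20 weeks labelled as treated with CD36highCD90+ cells, which the design text calls transplanted fibroblasts (treated skin below). CD36 is a fatty acid receptor, and CD90 is a surface protein of fibroblasts. The labels name no genotype, transgene, age or sex, leave out how the fibrosis was made and which body site was sampled, and set no time for normal skin. Whether each library is from its own mouse is not stated either, so the p-values refer to variation among samples, part of which may be technical.

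Hox genes encode homeodomain transcription factors that give cells their position along the body axis and the limbs. They lie in clusters, and their order in a cluster, the paralogue position, follows the order of their expression from head to tail: low numbers reach farthest forward, and high numbers mark the rear of the trunk, the tail and the far end of the limb. Skin fibroblasts of adults keep a Hox pattern that depends on the body site, and Hoxc13 has a separate role in the keratinizing cells of hair and nail. The proteins bind DNA together with Pbx and Meis partners, and Polycomb and Trithorax complexes hold the clusters silent or active.

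On mm10 (GRCm38, positions from GENCODE M21) the Hoxa cluster lies on chromosome 6 from 52155590 to 52260880 on the minus strand. Hoxb lies on chromosome 11 from 96194316 to 96368256, Hoxc on chromosome 15 from 102921103 to 103036852 and Hoxd on chromosome 2 from 74668310 to 74765142, all on the plus strand. Of the 39 genes, 22 had an entry in RefSeq's promoter table (GRCm38.p6). The 200 bases upstream of the start are shown for the 4 members that were lower in fibrotic skin at 20 weeks and whose window held no annotated exon. They are Hoxa2 at chr6:52164832-52165031 (minus strand), Hoxa5 at chr6:52204588-52204787 (minus strand), Hoxd4 at chr2:74721778-74721977 (plus strand) and Hoxd8 at chr2:74704415-74704614 (plus strand). Capitals mark matches, on either strand, to TGATTNAT (the form of a joint Hox and Pbx site), TAATTA (a homeodomain core) or TATAAA.
Hoxa2: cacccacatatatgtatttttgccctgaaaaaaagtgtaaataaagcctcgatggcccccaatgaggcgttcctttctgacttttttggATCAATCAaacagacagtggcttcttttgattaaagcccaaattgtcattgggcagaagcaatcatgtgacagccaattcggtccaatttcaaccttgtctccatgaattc
Hoxa5: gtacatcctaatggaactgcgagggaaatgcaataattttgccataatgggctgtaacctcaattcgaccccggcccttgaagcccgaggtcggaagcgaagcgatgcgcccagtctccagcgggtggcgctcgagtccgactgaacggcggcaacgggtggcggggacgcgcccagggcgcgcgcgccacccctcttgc
Hoxd4: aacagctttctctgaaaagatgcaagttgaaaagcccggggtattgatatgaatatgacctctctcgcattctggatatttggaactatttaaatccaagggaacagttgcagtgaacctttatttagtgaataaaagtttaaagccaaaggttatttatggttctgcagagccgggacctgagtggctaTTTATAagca
Hoxd8: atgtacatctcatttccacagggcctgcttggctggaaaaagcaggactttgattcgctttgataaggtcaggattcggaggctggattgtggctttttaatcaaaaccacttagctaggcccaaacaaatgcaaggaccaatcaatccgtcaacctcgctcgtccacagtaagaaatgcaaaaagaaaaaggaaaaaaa
The Hoxa2 window holds a TGATTNAT match and the Hoxd4 window a TATAAA match, and the other two hold none of the 3 motifs. Among the 22 Hox genes with an entry, TGATTNAT was found for 2, TAATTA for 1 and TATAAA for 4. Over all 32851 windows of the table, the shares were 2.23%, 3.73% and 9.96%. A match is a description of the letters and no evidence of binding.

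The values are FPKM, fragments scaled to transcript length and to the fragments of the library, so levels can be compared between genes. Depth cannot be read from them, so no counting error is given. Libraries were alike in scale: the median over tested genes was 9.63 FPKM in the lowest library and 10.3 FPKM in the highest. Fibroblast, keratinocyte, endothelial and macrophage genes were measured in every library, although the keratins Krt1 and Krt10 were listed at 0 in 3 and 2 of the 20-week fibrotic libraries. Skeletal muscle RNA differed most within groups: the sum of 10 muscle genes was 173 FPKM in normal library 2, 73.1 in 6-week library 2 and 110 in treated library 1, against 813 to 7177 in the other 9 libraries. In bulk skin, fewer cells of a type and less RNA per cell cannot be told apart.

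Most of the family was measurable in skin. At a level of 1 FPKM, 15 of the 39 genes were present in all 12 libraries, 13 in some and 11 in none. Hoxa had 5 genes present in all libraries, Hoxb 3, Hoxc 5 and Hoxd 2. The 11 genes below 1 FPKM everywhere were Hoxa11, Hoxa13, Hoxb1, Hoxb13, Hoxc11, Hoxc12, Hoxd1, Hoxd3, Hoxd11, Hoxd12 and Hoxd13, so 3 of them lie at positions 1 to 3 and 8 at positions 11 to 13. Hoxd12 was listed at 0 in all libraries, which in this kind of table can also be a failed estimate. Of the other 10, Hoxc11 came closest to the level with 0.760 FPKM, in 6-week library 3. Just inside it, Hoxd10 reached 1.14 FPKM at most.

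**Figure D1:**
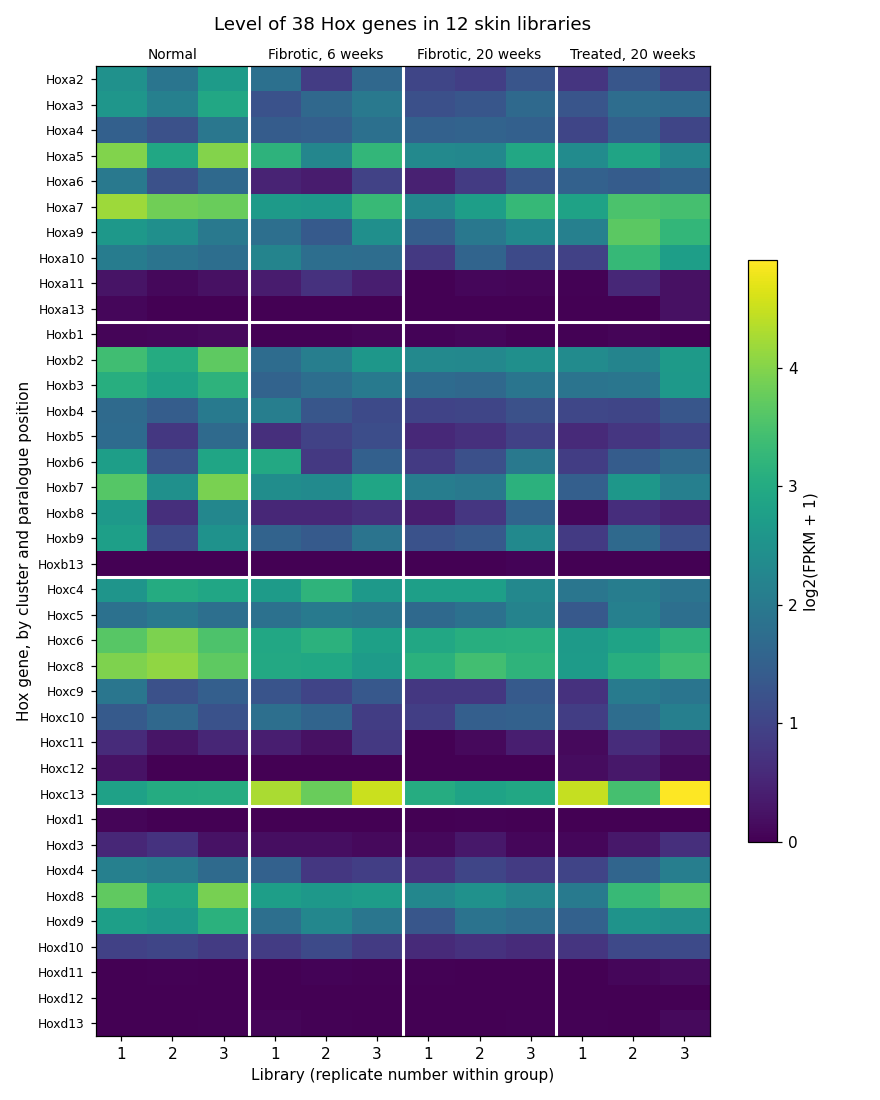
Heat map of log2(FPKM + 1) for 38 of the 39 Hox genes (rows, by cluster and paralogue position) in 12 libraries (columns, 3 a group). Hoxa11, Hoxa13, Hoxb13 and positions 11 to 13 of Hoxd stay dark in every library, and Hoxc13 is brightest in the 6-week and treated groups.

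By cluster, the highest position present was 9 or 10 in Hoxa and in Hoxd, and 9 in Hoxb except in treated library 1, where it was 7. Hoxc was present up to Hoxc13, which was at 5.99 FPKM or more in every library, although Hoxc11 and Hoxc12 before it stayed below 1 FPKM. Hoxc11 was above 0 in all libraries but 20-week library 1. The number of members at 1 FPKM or more was 27, 25 and 27 in normal skin, 24, 22 and 23 at 6 weeks, 18, 22 and 24 at 20 weeks, and 18, 25 and 24 in treated skin. Fibrotic libraries at 6 weeks therefore lay below every normal library, and the 2 lowest counts were those of 20-week library 1 and treated library 1.

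The most abundant member of each cluster sat in its middle, except in Hoxc. Hoxa7, which helps pattern the thoracic spine, averaged 8.98 FPKM over the 12 libraries. Hoxb7 averaged 5.74 FPKM and Hoxd8 averaged 7.03 FPKM. In Hoxc, Hoxc13 was the most abundant of all 39 genes with 12.8 FPKM, followed by Hoxc8, a gene of the thoracic spine and forelimb motor neurons, with 9.12 FPKM. Without Hoxc13, positions 9 to 13 made up 11% to 16.7% of all Hox FPKM in the 3 groups other than treated skin, and 12.1%, 30.3% and 20.8% in treated libraries 1, 2 and 3.

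Other genes of body site were read beside the clusters. Tbx5, the forelimb factor, was at most 0.677 FPKM in any library, and Tbx4, the hindlimb factor, at most 0.589. Pitx1, which also marks the hindlimb, was listed at 0, 0.0392 and 0 FPKM in normal skin. It was 2.90, 3.29 and 1.10 FPKM at 6 weeks, 1.7, 2.73 and 3.57 FPKM at 20 weeks, and 0.585, 0.575 and 0.133 FPKM in treated skin. All fibrotic libraries thus lay above all normal and treated ones. They were also the only libraries in which Pitx1 reached 1 FPKM. It met the filter for testing only through the groups where it was high, and its tests carry that limit. The differences of Pitx1 passed the test against normal skin (log2 fold change 1.69 ± 0.28 (SE) at 6 weeks, adjusted p = 0.00168, and 1.82 ± 0.28 at 20 weeks, adjusted p = 0.0017), and treated skin was lower than fibrotic skin at 20 weeks (-1.34 ± 0.28, adjusted p = 0.0193). Tbx15, a factor of trunk dermis, ranged from 3.1 to 20.2 FPKM. Of the 10 trunk and limb dermis factors, 7 were tested. None was called at 6 weeks, Prrx1 was lower at 20 weeks (-1.03 ± 0.28, adjusted p = 0.0193), and Prrx2 was higher in treated than in normal skin (1.34 ± 0.39, adjusted p = 0.0381). Of the 8 face factors, only Dlx5 was tested, and it was lower in treated than in fibrotic skin (-0.70 ± 0.19, adjusted p = 0.0395).

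For tests, each gene with at least 1 FPKM in 3 or more libraries was fitted in limma on log2(FPKM + 1), which understates the change of low genes, and a gene was called at a Benjamini-Hochberg adjusted p under 0.05 over all 13761 tested genes. Of the 39 Hox genes, 28 were tested. None of them reached 1 FPKM in a single group only. Hoxb5 and Hoxb8, though, reached it in just 3 libraries, normal libraries 1 and 3 and 1 fibrotic library. These genes passed mainly through the group where they were high.

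The comparison of fibrotic with normal skin asks which Hox genes differ once skin is fibrotic. At 6 weeks, 11 of the 28 were called, 10 lower and 1 higher. Of all tested genes, 39.3% were called, 21.7% lower and 17.6% higher, so the called share of Hox genes was close to the background in total and above it on the lower side. The lower genes were Hoxa2, Hoxa3, Hoxa6, Hoxa7, Hoxb2, Hoxb3, Hoxc6, Hoxc8, Hoxd4 and Hoxd9, and the higher gene was Hoxc13. The median log2 fold change of the 28 was -0.64, against -0.05 over all tested genes. In 12 of the 28, the 6-week and normal libraries did not overlap, as in 58.1% of all tested genes.

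Hoxb3, a hindbrain and neck gene, was 7.49, 6.07 and 7.96 FPKM in normal skin and 1.96, 2.44 and 3.03 FPKM at 6 weeks. Its neighbour Hoxb2 was 9.64, 7.09 and 11.9 FPKM in normal skin and 2.34, 3.29 and 5.07 FPKM at 6 weeks. For both genes, every fibrotic library lay below every normal one. The log2 fold change was -1.24 ± 0.20 for Hoxb3 (adjusted p = 0.00159) and -1.22 ± 0.23 for Hoxb2 (adjusted p = 0.00299).

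At the middle of Hoxc, Hoxc8 was 14.6, 16.2 and 12 FPKM in normal skin and 6.80, 6.56 and 5.49 FPKM at 6 weeks (-1.06 ± 0.17, adjusted p = 0.00161). Hoxc6, a gene of the neck and upper chest, was 11.4, 14.4 and 10.6 FPKM in normal skin and 6.64, 7.88 and 5.88 FPKM at 6 weeks (-0.75 ± 0.15, adjusted p = 0.00482). The groups did not overlap for either gene. Their cluster neighbours Hoxc4 and Hoxc5 gave log2 fold changes of 0.01 (95% interval -0.41 to 0.43) and 0.04 (-0.39 to 0.47). Hoxc5 shares 166 annotated exonic bases with Hoxc10 on the same strand, so reads there cannot be assigned to either with certainty.

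In Hoxa, Hoxa7 was 17.1, 13.3 and 12.9 FPKM in normal skin and 5.40, 5.13 and 8.88 FPKM at 6 weeks (-1.07 ± 0.29, adjusted p = 0.0151). Hoxa3, needed for the thymus and parathyroid, was 4.99, 3.42 and 6.72 FPKM against 1.37, 2.17 and 2.93 FPKM (-0.93 ± 0.25, adjusted p = 0.0153). Hoxa6 was 2.93, 1.34 and 2.2 FPKM against 0.400, 0.299 and 0.960 FPKM (-1.01 ± 0.25, adjusted p = 0.0113). The 6-week libraries lay below all normal ones for these 3 genes. Hoxa2, which patterns the hindbrain and the face skeleton, was 4.60, 2.77 and 5.50 FPKM against 2.51, 0.838 and 2.16 FPKM (-0.92 ± 0.28, adjusted p = 0.0255). In Hoxd, Hoxd9 was 5.79, 5.32 and 7.74 FPKM against 2.45, 3.82 and 2.81 FPKM (-0.86 ± 0.27, adjusted p = 0.0286). Hoxd4 was 3.38, 3.1 and 2.25 FPKM against 1.87, 0.746 and 0.870 FPKM (-0.88 ± 0.28, adjusted p = 0.0299). The groups stayed apart here too. The exons of Hoxd4 share bases with Hoxd3 and with Gm28230 on the same strand, 1542 when the overlaps with each are added. Those of Hoxa2 and Hoxa3 share 267 and 482 bases with Gm28308. Exons of Hoxa3, Hoxa7 and Hoxd4, and those of Hoxb2 and Hoxb3 (with Hoxb3os), overlap genes on the other strand. The kit keeps the strand, but the setting used in counting is not given, so such reads cannot be told apart.

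Leaving out single libraries ended 5 of these calls. Hoxa2 was not called without normal library 1 or 3 or 6-week library 2, with an adjusted p of up to 0.0914. Hoxa3 was not called without normal library 3 or 6-week library 1 (up to 0.0579), and Hoxa7 without normal library 1 or 6-week library 1 or 2 (up to 0.0595). Hoxd4 was not called without normal library 1 or 2 or 6-week library 2 or 3 (up to 0.107), and Hoxd9 without normal library 1 or 3 or 6-week library 1 or 3 (up to 0.0934). Without normal library 1 the count was 7 of 28, with 26.7% of all tested genes called. The other 6 calls (Hoxa6, Hoxb2, Hoxb3, Hoxc6, Hoxc8 and Hoxc13) passed with each library of the comparison left out.

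**Figure D2:**
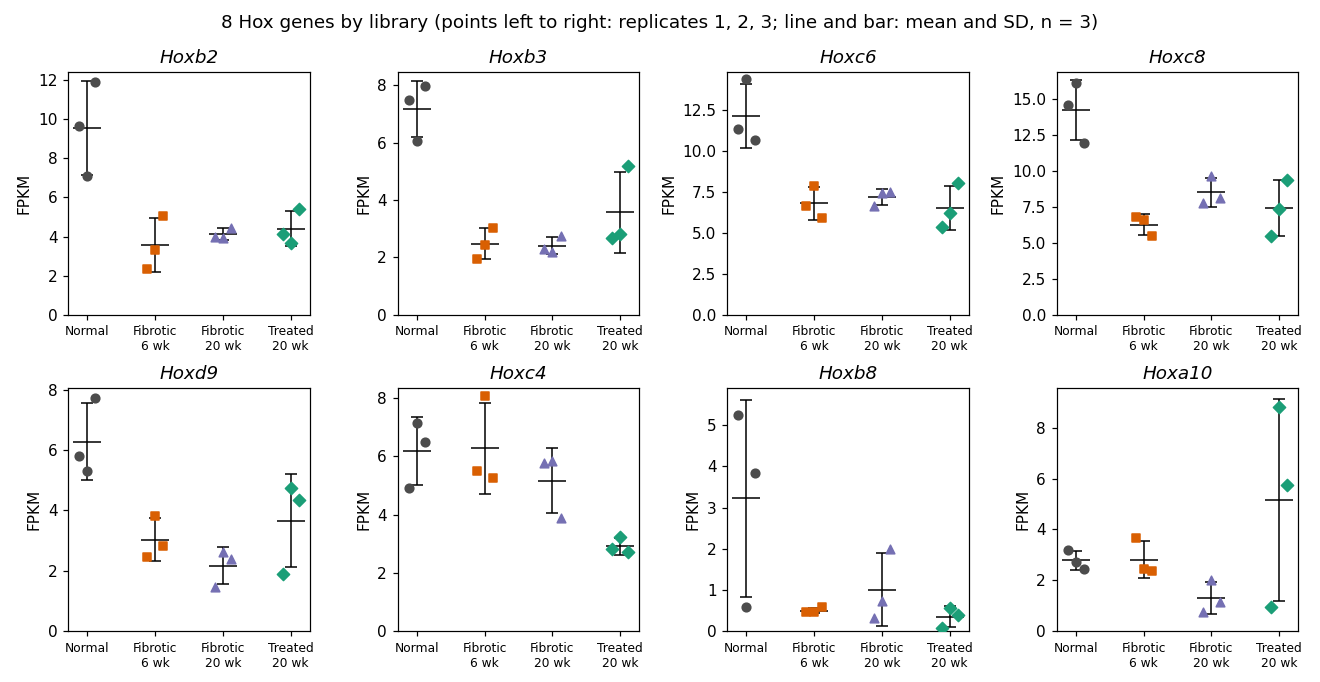
FPKM of 8 Hox genes in each library, with the mean and SD of each group (n = 3). Hoxb2, Hoxb3, Hoxc6 and Hoxc8 lie below the normal libraries in all 9 other libraries, Hoxc4 is lowest in treated skin, and Hoxa10 runs from 0.942 to 8.82 FPKM among treated libraries.

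At 20 weeks, 12 of the 28 were lower than in normal skin and none was higher. Of all tested genes, 33.5% were called, 18.2% lower and 15.3% higher. The 12 were the 10 genes lower at 6 weeks and, in addition, Hoxa5 and Hoxd8. The median of the 28 was -0.71 on the log2 scale, against -0.04 over all tested genes. For 13 of the 28, no 20-week value reached into the normal range or above it, and groups that did not overlap were found for 54.6% of all tested genes. Both comparisons use the same 3 normal libraries, so they are not independent.

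Hoxb3 was 2.30, 2.17 and 2.74 FPKM at 20 weeks (-1.26 ± 0.20 against normal skin, adjusted p = 0.00204). Hoxa2 was 1.03, 0.885 and 1.46 FPKM (-1.29 ± 0.28, adjusted p = 0.00724), and Hoxa3 was 1.29, 1.48 and 2.22 FPKM (-1.16 ± 0.25, adjusted p = 0.00706). Hoxd9 was 1.47, 2.63 and 2.39 FPKM (-1.21 ± 0.27, adjusted p = 0.008). All of these values lay below every normal library. Hoxb2 was 3.95, 3.91 and 4.46 FPKM (-1.02 ± 0.23, adjusted p = 0.00835). Hoxa7 was 3.82, 5.76 and 8.79 FPKM (-1.17 ± 0.29, adjusted p = 0.0124). Hoxc6 was 6.64, 7.41 and 7.51 FPKM (-0.67 ± 0.15, adjusted p = 0.00944). These 7 genes passed with each library of the comparison left out.

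The remaining 5 calls did not. Hoxa5, a gene of the lung and the upper spine, was 14.7, 6.57 and 15.0 FPKM in normal skin and 3.94, 3.85 and 6.66 FPKM at 20 weeks (-1.13 ± 0.35, adjusted p = 0.0333), so 20-week library 3 overlapped normal library 2. Hoxd8 was 12.1, 6.33 and 14 FPKM in normal skin and 3.83, 4.61 and 3.74 FPKM at 20 weeks (-1.16 ± 0.37, adjusted p = 0.037). Hoxa6 was 0.368, 0.815 and 1.48 FPKM at 20 weeks (-0.75 ± 0.25, adjusted p = 0.0432), overlapping normal library 2. Hoxa5 and Hoxa6 were not called without normal library 1 or 3 or 20-week library 1 or 2, with an adjusted p of up to 0.11 and 0.151, and Hoxd8 was not called with any of these libraries or 20-week library 3 left out (up to 0.121). Hoxc8, at 7.77, 9.65 and 8.15 FPKM (-0.68 ± 0.17, adjusted p = 0.0153), was not called without normal library 2 or 20-week library 1 (up to 0.055). Hoxd4, at 0.619, 1.03 and 0.814 FPKM (-1.10 ± 0.28, adjusted p = 0.0141), was not called without normal library 1 or 20-week library 1 (up to 0.051). Without 20-week library 1 the count was 7 of 28, with 22% of all tested genes called.

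By paralogue position, the genes called lower lay at positions 2 to 9 at both times, where 21.7% of all tested genes were lower at 6 weeks and 18.2% at 20 weeks. At positions 1 to 3, 4 of 5 tested genes were lower at both times. At positions 4 to 8, 5 of 15 were lower at 6 weeks and 7 of 15 at 20 weeks. At positions 9 to 13, Hoxd9 alone of 8 was lower at each time. The median log2 fold change of the 3 position classes was -0.93, -0.75 and -0.17 at 6 weeks and -1.16, -0.75 and -0.45 at 20 weeks, and the difference between the classes was not tested. Hoxa4 gave values near 0, with 0.03 (95% interval -0.42 to 0.47) at 6 weeks and -0.02 (-0.46 to 0.43) at 20 weeks.

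The Hoxb5 to Hoxb9 block, a neighbouring run of genes, spread widely in normal skin. Its sum was 30.2, 8.35 and 31.2 FPKM there, 14.1, 7.87 and 12.8 FPKM at 6 weeks, 6.13, 7.13 and 17.9 FPKM at 20 weeks, and 4.02, 10.2 and 8.25 FPKM in treated skin. Normal library 2 lay within the range of the fibrotic ones. Hoxb8 was 5.26, 0.573 and 3.84 FPKM in normal skin and 0.460, 0.453 and 0.577 FPKM at 6 weeks (-1.28 ± 0.46, adjusted p = 0.0502). Hoxb7 was 11.2, 4.51 and 14.1 FPKM against 4.32, 4.10 and 6.43 FPKM (-0.77 ± 0.43, adjusted p = 0.177). None of the 5 genes was called in the 5 comparisons. Hoxb5 and Hoxb8 met the filter mainly through normal libraries 1 and 3, and their p-values carry that limit. Normal library 2 had the lowest normal value of each of the 5 genes. The fit without it is therefore no independent support for a difference. Without normal library 2 all but Hoxb6 were called at 6 weeks (16 of the 28 members in all, with 32.6% of all tested genes called), with Hoxb8 at an adjusted p of 0.00388 and Hoxb7 at 0.0452. With any other library of this comparison left out, none of the block was called. The adjusted p then rose to as much as 0.180 for Hoxb8, 0.402 for Hoxb5, 0.445 for Hoxb7 and 0.794 for Hoxb9.

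Between the fibrotic groups, 0 of the 28 genes differed at 20 against 6 weeks in limma, where 0.0363% of all tested genes were called. At an unadjusted p under 0.05 there were 2, Hoxc13 and Hoxd10. Hoxc13 had the smallest adjusted p, 0.0988, with a log2 fold change of -1.26 ± 0.31, and groups that did not overlap. Groups that did not overlap were found for 5 of the 28, against 30.9% of all tested genes. In a fit of these 6 libraries alone it was called (adjusted p = 0.0246). The 95% interval of the difference was -0.30 to 0.71 for Hoxb2, -0.47 to 0.43 for Hoxb3 and -0.27 to 0.42 for Hoxc6. For Hoxc8, which was higher in all 20-week libraries than in all 6-week ones, it was -0.00038 to 0.77.

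The comparison of treated with fibrotic skin at 20 weeks asks whether the Hox pattern differs after the cells were given. Only Hoxc13, which was higher, and Hoxc4, which was lower, were called of the 28. Of all tested genes, 15.3% were called, 4.45% higher and 10.9% lower. The median log2 fold change of the 28 was 0.06, against -0.0044 over all genes, and the groups did not overlap in 5 of the 28, against 32.2% of all tested genes. Hoxc4 was 5.78, 5.85 and 3.88 FPKM in fibrotic and 2.80, 3.25 and 2.70 FPKM in treated skin (-0.64 ± 0.19, adjusted p = 0.045). It had been 4.91, 7.16 and 6.51 FPKM in normal skin and 5.50, 8.08 and 5.25 FPKM at 6 weeks, so the treated libraries lay below all other 9. Without any single library of this comparison other than treated library 1 the call of Hoxc4 was lost (adjusted p up to 0.140). In a fit of these 6 libraries alone neither call was made, and 0.0218% of all tested genes passed.

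Of the 12 genes that were lower in fibrotic skin at 20 weeks, none was called higher in treated skin. The 95% interval of the difference spanned 0 for 10 of them, with -0.44 to 0.57 for Hoxb2, -0.06 to 0.84 for Hoxb3 and -0.48 to 0.21 for Hoxc6. It lay above 0 for Hoxd4 (0.71, 0.09 to 1.33, adjusted p = 0.104) and Hoxa6 (0.62, 0.06 to 1.19, adjusted p = 0.112). Hoxa6 was 1.87, 1.7 and 1.91 FPKM in treated skin, above all fibrotic libraries at 20 weeks, and Hoxd4 overlapped.

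Treated library 1 had the lowest value of its group for 21 of the 28 tested members, at the front, middle and rear of the clusters, against 42.5% of the other tested genes. Hoxc13 was not among them, since its lowest treated value was in library 2. Hoxa10, a gene of the lumbar spine and uterus, was 0.942 FPKM in treated library 1 and 8.82 and 5.74 FPKM in libraries 2 and 3, against 0.757, 2.00 and 1.14 FPKM in fibrotic skin at 20 weeks. Normal skin had 3.18, 2.72 and 2.43 FPKM of it. Hoxa9 was 3.41, 11.8 and 8.49 FPKM in treated skin against 1.72, 2.88 and 4.03 FPKM in fibrotic skin at 20 weeks. The 2 libraries thus held more of both genes than any of the other 10. Over all 3 treated libraries, neither was called (1.17 ± 0.48, adjusted p = 0.118 for Hoxa10, and 1.11 ± 0.40, adjusted p = 0.0848 for Hoxa9). Without treated library 1, 9 of the 28 were called (32.1%), while 37.9% of all tested genes were, so the members' share was below the background. Of the 9, Hoxc4 was lower and 8 were higher: Hoxa9 (adjusted p = 0.00695), Hoxa10 (adjusted p = 0.000757), Hoxc9, Hoxc13, Hoxd4, Hoxd8, Hoxd9 and Hoxd10. Treated library 1 also differed in its tissue makeup. Muscle genes summed to 110 FPKM there against 1786 and 3055 in libraries 2 and 3, endothelial genes to 45.0 against 146 and 191, mast cell genes to 31.7 against 134 and 112, fat cell genes to 1058 against 2870 and 5371, and fibroblast genes to 655 against 1258 and 1003. Its lymphocyte genes summed to 70.2 FPKM, against 29.6 and 23.9, and its keratinocyte genes to 26635 FPKM, against 18322 and 9231. The part of these differences in the Hox values, muscle RNA among them, was not tested. With the summed muscle list as a covariate, an alternative chosen after seeing the data, 5 of the 28 were called (17.9%, against 22.8% of all tested genes), Hoxa6, Hoxa9, Hoxc13 and Hoxd8 higher and Hoxc4 lower. With any library of fibrotic skin left out, or treated library 3, the count was 0, where 0.0218% to 6.97% of all tested genes were called, and without treated library 2 it was 1, where 3.87% were.

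**Figure D3:**
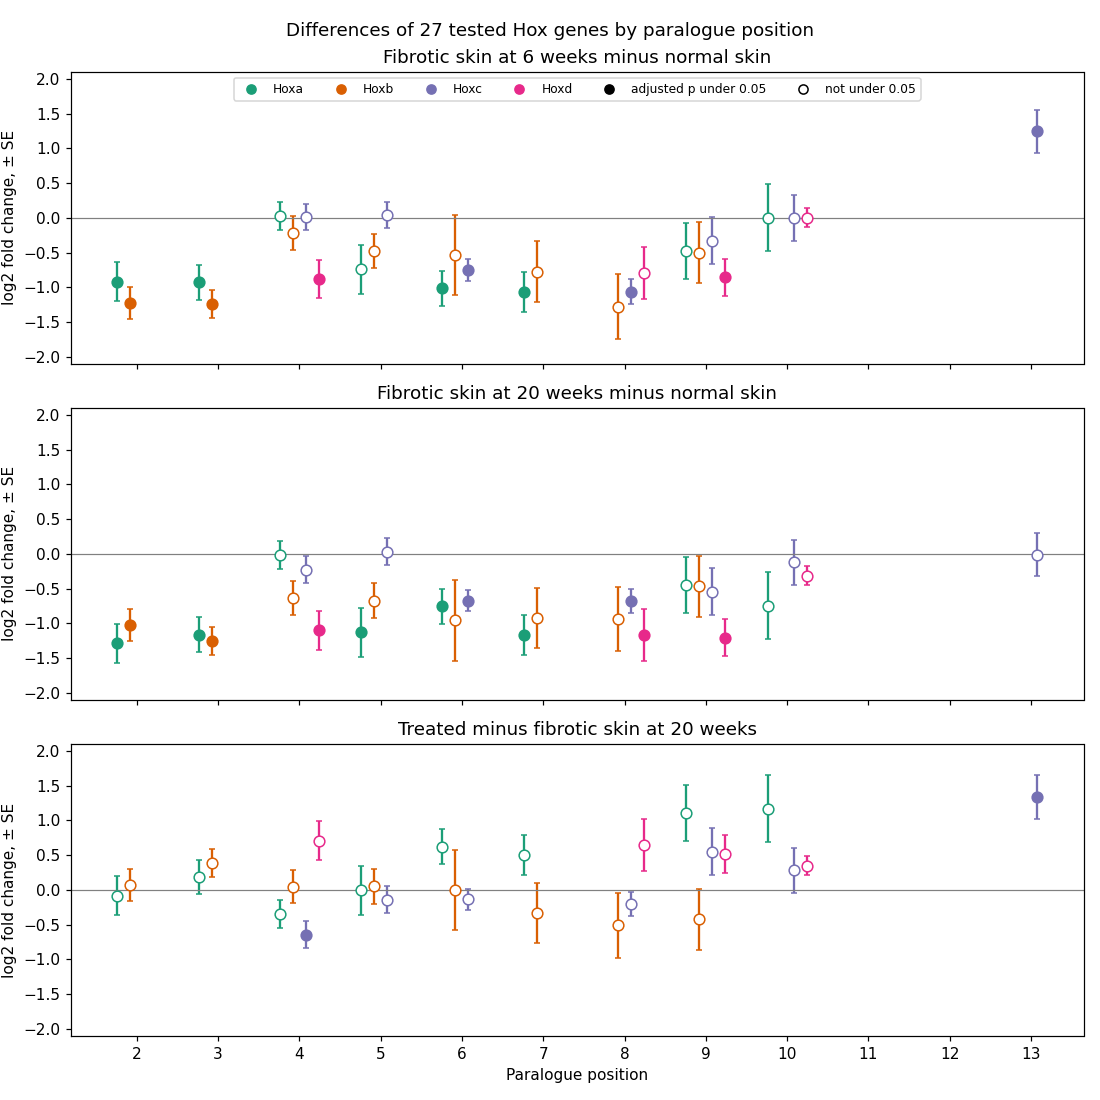
Log2 fold change (± SE, n = 3 a group) of 27 of the 28 tested Hox genes against paralogue position, for 3 comparisons. Filled points have an adjusted p under 0.05: they lie below 0 at positions 2 to 9 in both fibrotic comparisons, Hoxc13 lies above 0 at 6 weeks and after treatment, and Hoxc4 below 0 after treatment.

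Against normal skin, 9 of the 28 were called in treated skin, Hoxc13 higher and 8 lower (Hoxa2, Hoxa3, Hoxa5, Hoxb2, Hoxb3, Hoxc4, Hoxc6 and Hoxc8). Of all tested genes, 20.7% were called, 7.57% higher and 13.2% lower. The groups did not overlap in 13 of the 28, against 37.5% of all tested genes. Of the 10 genes lower in both fibrotic comparisons, 6 were also lower here, with the same normal libraries in all 3. Hoxa2 was 0.683, 1.5 and 0.899 FPKM in treated skin (-1.37 ± 0.28, adjusted p = 0.0108). Hoxc6 was 5.36, 6.19 and 8.02 FPKM (-0.81 ± 0.15, adjusted p = 0.00835), and Hoxc8 was 5.47, 7.39 and 9.39 FPKM (-0.87 ± 0.17, adjusted p = 0.00988). These 3 genes passed with each library of the comparison left out, and every treated value was below every normal one. In a fit of the 6 libraries compared, though, all 9 calls of this comparison were lost: the adjusted p was 0.064 for Hoxa2, 0.0747 for Hoxc6 and 0.0826 for Hoxc8, and 1% of all tested genes were called.

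Hoxb2 was 4.14, 3.65 and 5.40 FPKM in treated skin (-0.95 ± 0.23, adjusted p = 0.0192) and Hoxb3 was 2.69, 2.82 and 5.20 FPKM (-0.87 ± 0.20, adjusted p = 0.0171). Hoxc4 differed from normal skin by -0.87 ± 0.19 (adjusted p = 0.0134). Hoxa3 was 1.44, 2.37 and 2.27 FPKM (-0.97 ± 0.25, adjusted p = 0.0239), and Hoxa5 was 4.18, 6.30 and 3.85 FPKM (-1.13 ± 0.35, adjusted p = 0.0466). Again the groups did not overlap for any of these genes. Without normal library 3, 3 of the 28 were called, and 6.57% of all tested genes. The calls of Hoxb2, Hoxb3, Hoxc4 and Hoxc13 were lost there (adjusted p up to 0.0809, 0.0719, 0.0561 and 0.0579). Hoxa3 was also lost without normal library 1 or treated library 1 (up to 0.0958), and Hoxa5 without those or treated library 3 (up to 0.161). In Hoxd, Hoxd4 at 0.996, 2.03 and 3.30 FPKM, Hoxd8 at 3.06, 8.84 and 11.4 FPKM and Hoxd9 at 1.89, 4.74 and 4.36 FPKM were not called.

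Hoxc13 moved apart from the rest of the family. It was 5.99, 7.09 and 7.18 FPKM in normal skin, 18.4, 12.9 and 21.9 FPKM at 6 weeks, 7.24, 6.15 and 6.64 FPKM at 20 weeks, and 21.1, 9.99 and 29.0 FPKM in treated skin. All 6-week and treated libraries lay above all normal and 20-week ones. The log2 fold change was 1.24 ± 0.31 at 6 weeks against normal skin (adjusted p = 0.0114), -0.01 at 20 weeks (95% interval -0.70 to 0.68), 1.33 ± 0.31 in treated against normal skin (adjusted p = 0.018) and 1.34 ± 0.31 in treated against fibrotic skin at 20 weeks (adjusted p = 0.0229). The last call was lost without any library of fibrotic skin at 20 weeks or treated library 3, with an adjusted p of up to 0.0769, and the call against normal skin without normal library 3 (0.0579).

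Genes of the hair shaft moved with Hoxc13. The sum of 12 hair keratins, none of them at 0 in any library, ran from 7.72 to 124 FPKM in normal skin, 382 to 652 at 6 weeks, 47.0 to 99.7 at 20 weeks and 143 to 1996 in treated skin. Of the 12, 10 were higher at 6 weeks than in normal skin (17.6% of all tested genes were), 1 at 20 weeks and 11 in treated skin (7.57%), and 3 were higher in treated than in fibrotic skin at 20 weeks (4.45%). Hair factors called higher at 6 weeks were Lef1 (1.69 ± 0.27, adjusted p = 0.00138), Dlx3 and Msx2, 3 of 5. At 20 weeks 1 of the 5 was higher (15.3% of all tested genes were), and 3 were in treated against normal skin. The 5 summed to 31.8 to 45.0 FPKM in normal skin, 74.5 to 113 at 6 weeks and 59.0 to 62.5 at 20 weeks. In treated skin they summed to 105, 41.2 and 123 FPKM. Unlike Hoxc13, this sum was above all normal libraries in every 20-week library. Treated library 2 lay within its normal range. Within the 6-week group and within the treated group, the library with most hair keratin RNA also had most Hoxc13 and the one with least had least. In the other two groups the order did not match: normal library 2 had most hair keratin RNA but library 3 most Hoxc13, and 20-week library 3 had least hair keratin RNA but library 2 least Hoxc13. Whether the amount of hair RNA accounts for the differences in Hoxc13 was not tested.

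**Figure D4:**
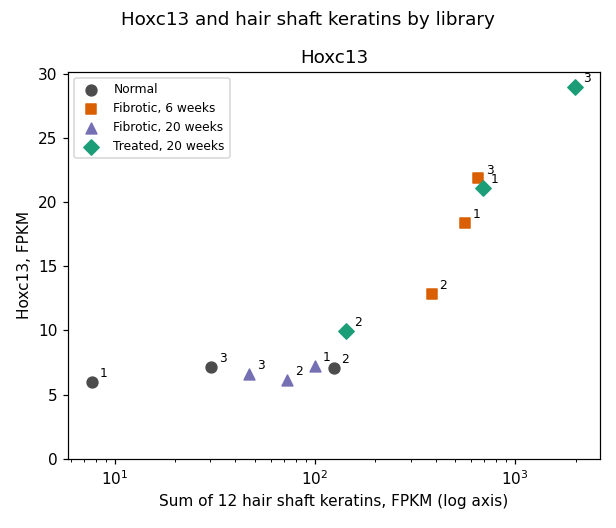
Hoxc13 in FPKM against the sum of 12 hair shaft keratins in FPKM (log axis) in each of 12 libraries, with replicate numbers. The 6 libraries of normal skin and of fibrotic skin at 20 weeks have 5.99 to 7.24 FPKM of Hoxc13 and at most 124 FPKM of hair keratins, and the other 6 libraries have more of both.

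Summed by cluster, Hoxa was 55.8, 36.7 and 52.2 FPKM in normal skin, 27.1, 20.0 and 34.8 FPKM at 6 weeks, 16.5, 20.8 and 28.6 FPKM at 20 weeks, and 21.1, 45.9 and 35.0 FPKM in treated skin. Hoxb was 49.7, 23.3 and 54.1 FPKM in normal skin, and 11.9 to 26.5 FPKM in the other 9 libraries. Hoxc was 44.5, 51.4 and 42.4 FPKM in normal skin, 44.1, 41.6 and 44.5 FPKM at 6 weeks, 31.3, 34.2 and 33.6 FPKM at 20 weeks, and 38.0, 36.5 and 57.9 FPKM in treated skin. Hoxd was 22.7, 16.4 and 25.0 FPKM in normal skin, 10.1 to 11.1 FPKM at 6 weeks, 6.51 to 9.17 FPKM at 20 weeks and 6.72, 17.0 and 20.9 FPKM in treated skin. Hoxa and Hoxd therefore separated all normal from all fibrotic libraries, whereas Hoxb did not, and Hoxc, which includes Hoxc13, did so at 20 weeks but overlapped at 6 weeks. Without Hoxc13, all Hox genes summed to 167, 121 and 167 FPKM in normal skin, 74.8 to 89.6 at 6 weeks, 60.5 to 89.5 at 20 weeks, and 56.7, 107 and 105 in treated skin.

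Fibroblast RNA was read beside these sums, since fibroblasts carry much of the Hox pattern of skin. The sum of 15 fibroblast genes was 661 to 1110 FPKM in normal skin, 945 to 1867 at 6 weeks, 447 to 1164 at 20 weeks and 655 to 1258 in treated skin. At 6 weeks 5 of the 15 were higher, all of them collagen genes such as Col1a1 (2.11 ± 0.44, adjusted p = 0.00502), and none was lower. Of all tested genes, 17.6% were higher and 21.7% lower there. At 20 weeks 2 of the 15 were higher (Col1a1 and Col1a2) and 3 lower (Dcn, Pdgfra and Pi16). These counts were near the background, where 15.3% of all tested genes were higher and 18.2% lower. In treated skin 1 of the 15 was higher than in fibrotic skin at 20 weeks (4.45% of all tested genes were). Against normal skin 2 were higher (7.57%), and none was lower in either comparison. Pdgfra, a receptor used as a marker of dermal fibroblasts, was 4.45, 9.11 and 5.02 FPKM in normal skin, 7.39, 6.23 and 2.32 FPKM at 6 weeks, and 2.54, 3.16 and 1.49 FPKM in fibrotic skin at 20 weeks. Per 1000 FPKM of the list, the Hox sum without Hoxc13 was 240, 109 and 252 in normal skin, 45.9, 56.6 and 94.7 at 6 weeks, 77.4, 62.2 and 200 at 20 weeks, and 86.5, 85.2 and 105 in treated skin. All 6-week and treated libraries lay below all normal ones on this measure, and 20-week library 3 did not. The list includes collagens, 5 of which were higher at 6 weeks, so the ratio is not a count of Hox RNA per fibroblast.

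Skeletal muscle RNA was compared with the sums within groups. In each of the 4 groups the library with the least muscle RNA (normal 2, 6-week 2, 20-week 1 and treated 1) also had the lowest Hoxa and the lowest Hoxb sum. It had the lowest Hoxd sum in each group but the 6-week one, where library 3 was lowest. For Hoxc this held in the fibrotic groups alone: normal library 2 had the highest Hoxc sum of normal skin, and treated library 2 the lowest of treated skin. Of the 28 tested members, 17, 14, 17 and 21 had their lowest value of the group in that library, in that order, against 27.0%, 29.8%, 37.2% and 42.5% of the other tested genes. None of the 10 muscle genes was called in any of the 5 comparisons. With the 3 libraries under 200 FPKM of muscle RNA left out, an alternative chosen after seeing the data, 12 of the 28 were called at 6 weeks, 17 at 20 weeks and 4 in treated against normal skin, where 32.5%, 36.3% and 8.7% of all tested genes were called. With the muscle sum as a covariate, also chosen after seeing the data, 10, 14 and 11 were called, against 35%, 37.1% and 21.3% of all tested genes.

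**Figure D5:**
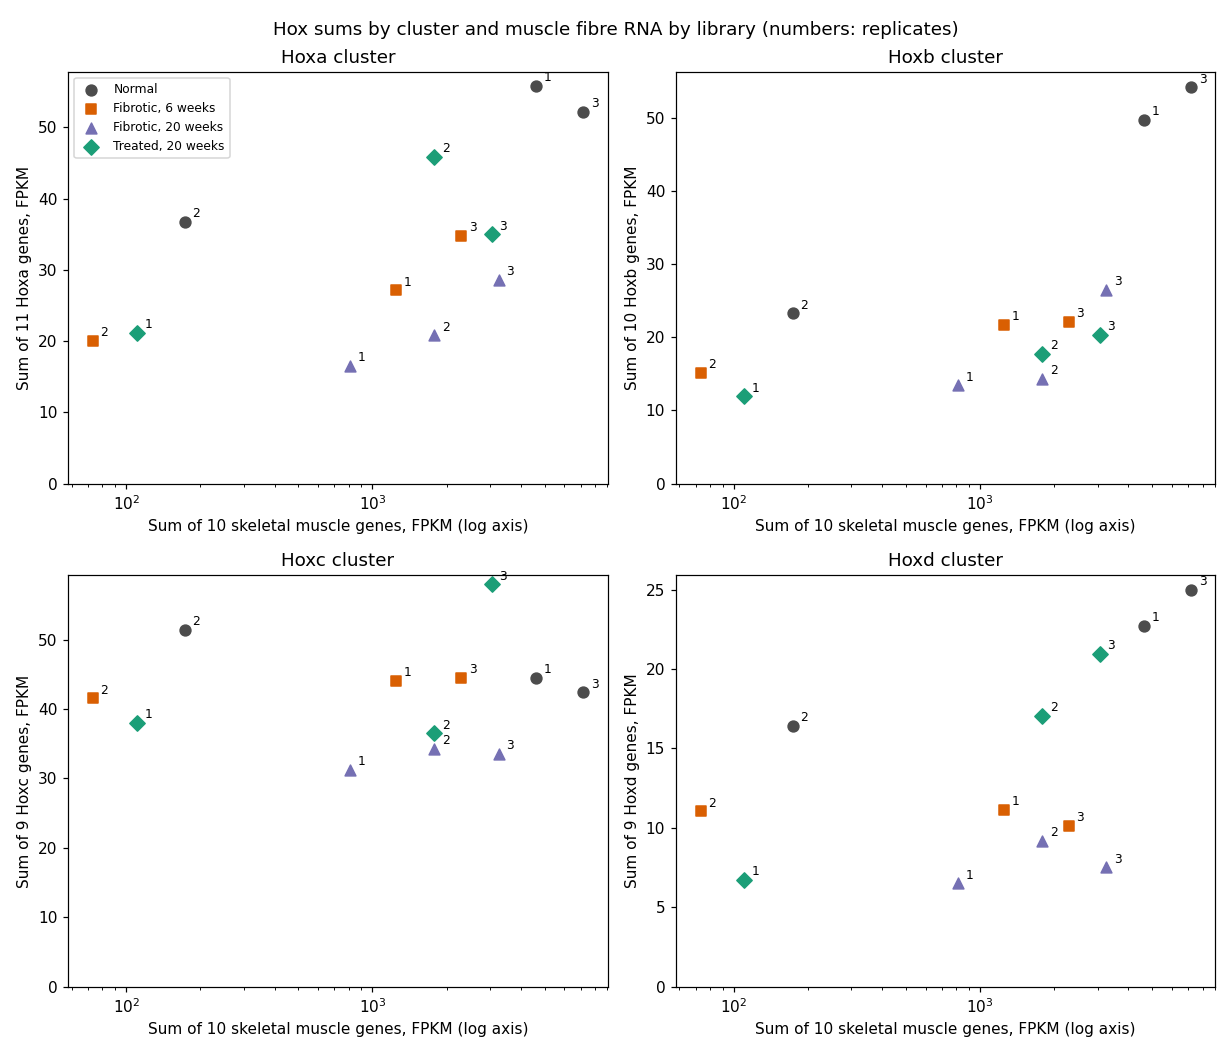
Sums of the 11 Hoxa, 10 Hoxb, 9 Hoxc and 9 Hoxd genes (1 panel each) in FPKM against the sum of 10 skeletal muscle genes in FPKM (log axis), by library and with replicate numbers. In each group the library farthest left is the lowest for Hoxa and Hoxb but not throughout for Hoxc and Hoxd, and normal libraries 1 and 3 are the highest of all 12 except for Hoxc.

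Partners and regulators of the clusters were read against the share of all genes. At 6 weeks 3 of 8 tested cofactors, 9 of 22 Polycomb genes and 4 of 10 Trithorax genes were called, where 39.3% of all tested genes were, so these shares were near the background. The median log2 fold change of these lists was -0.25, -0.12 and -0.08, against -0.05 over all tested genes. At 20 weeks 2 of 8, 8 of 22 and 2 of 10 were called, where 33.5% of all tested genes were. Of the 8 tested cofactors, 3 were lower at 6 weeks: Pknox1 (-0.48 ± 0.09, adjusted p = 0.00375), Meis1 (-0.28 ± 0.09) and Pknox2 (-1.01 ± 0.33). At 20 weeks Pknox1 and Pbx2 were lower. Pbx2 was higher in treated than in fibrotic skin (0.39 ± 0.10, adjusted p = 0.031), and none of the 8 was called in treated against normal skin. Of the Polycomb genes, which keep Hox genes silent, 8 were lower and 1 higher at 6 weeks, led by Phc3 (-0.72 ± 0.08, adjusted p = 0.000268), Ezh1 (-0.69 ± 0.08) and Cbx7 (-1.30 ± 0.20). At 20 weeks 7 were lower and 1 higher, with Phc3 (-0.51 ± 0.08), Cbx7 (-1.16 ± 0.20) and Rnf2 (-0.42 ± 0.08) in the lead. Of all tested genes, 21.7% were lower and 17.6% higher at 6 weeks, and 18.2% and 15.3% at 20 weeks. Treated skin had 2 Polycomb genes higher than fibrotic skin (Phc2 and Cbx6), where 4.45% of all tested genes were. Against normal skin 5 were lower and 1 higher, where 13.2% and 7.57% of all tested genes were.

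Trithorax genes act the other way, keeping Hox genes active. Of the 10 tested, 3 were lower and 1 higher at 6 weeks, and Kmt2a, listed as Mll1, fell by 0.99 ± 0.11 on the log2 scale (adjusted p = 0.000268). Kmt2a also fell by 0.82 ± 0.11 at 20 weeks (adjusted p = 0.000912), where 2 of the 10 were lower, and 3 were lower in treated than in normal skin. In these 3 comparisons 21.7%, 18.2% and 13.2% of all tested genes were lower. Treated and fibrotic skin at 20 weeks had no called member. Of retinoic acid and other axial genes, 5 of 13 were tested. Cyp26b1, which breaks down retinoic acid, was 20.0, 28.6 and 18.8 FPKM in normal skin, 11.7, 12.6 and 8.31 FPKM at 6 weeks, 6.05, 7.29 and 6.76 FPKM at 20 weeks and 9.89, 16.5 and 11.8 FPKM in treated skin. It was lower in each group than in normal skin (-0.98 ± 0.21, -1.59 ± 0.21 and -0.78 ± 0.21) and higher in treated than in fibrotic skin (0.81 ± 0.21, adjusted p = 0.0326). Rarg, a retinoic acid receptor, was lower in both fibrotic groups (-0.67 ± 0.10 and -0.37 ± 0.10), and Rara was higher in treated than in fibrotic skin (0.71 ± 0.19). Not one of these 5 genes was called between the fibrotic groups.

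Genes beside the clusters were read in the same way. Of 7 tested neighbours, Mtx2, next to Hoxd, was higher at 6 weeks (0.71 ± 0.15, adjusted p = 0.00506) and at 20 weeks (0.45 ± 0.15, adjusted p = 0.0412), while Skap1, next to Hoxb, and Lnpk, next to Hoxd and listed as Lnp, were lower at 6 weeks (-0.64 ± 0.14 and -0.65 ± 0.18). Smug1, near Hoxc, was lower in treated than in fibrotic skin (-0.48 ± 0.12). At 6 weeks 1 of the 7 was thus higher and 2 lower, where 17.6% and 21.7% of all tested genes were. At 20 weeks 1 was higher and 0 lower, against 15.3% and 18.2%. In treated against fibrotic skin 1 was lower, against 10.9%. The called neighbours went in both directions, and whether their share differs from the background was not tested. Of the noncoding genes within the clusters, Mira ranged from 23.8 to 71.9 FPKM and was lower in all groups than in normal skin (-1.06, -1.07 and -0.98, each ± 0.28). All 798 bases of Mira (chromosome 6, 52214491 to 52215288) lie inside exons of Hoxa7, so the 2 genes cannot be told apart. Hotair, in Hoxc, was at most 0.367 FPKM.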

How the data were processed

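Poly-A RNA (250 ng a sample, RNA integrity above 8.0) was sequenced from 12 skin samples with a stranded kit in paired-end runs of 101 cycles, per the labels. The authors deposited 1 table of FPKM values. Per the submitters' processing notes the build was mm10 and the tools included cutadapt 1.7.1, TopHat2 2.0.13, Bowtie2 2.2.3 and Cufflinks 2.2.1. For their roles, the annotation and the strand setting, nothing is given in the sources used here. Depth is unknown.

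Values were taken as log2(FPKM + 1). The 13761 genes that reached 1 FPKM in 3 or more libraries were fitted in limma 3.58.1 under R 4.3.3, with a mean for each group, a variance trend, 2-sided tests and Benjamini-Hochberg adjustment within each of 5 comparisons. An exact permutation test of 3 against 3 cannot go below p = 0.1. Steps were tested on simulated data. The members, gene lists (194 of 201 genes matched a row, some through RefSeq synonyms) and comparisons were chosen with earlier results of these data known. Members were described where called in any comparison or most abundant in their cluster. Up to 3 list genes with the smallest adjusted p were named in a comparison, and Col1a1, Col1a2, Dcn, Pi16, Pdgfra, Lef1, Dlx3, Msx2, Tbx4, Tbx5, Tbx15 and Hotair were chosen after their values were seen. Alternatives were another pseudocount, other filters, another scaling, a fit of the 6 libraries compared, a replicate block and each library of the comparison left out. The result of 1 Hox gene is not reported here, although the counts and sums include it.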

Additional observations from a re-analysis of the deposited data

How the results depend on the processing

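No Hox gene changed direction among called values under any alternative. Over the main set of alternatives, 1478 results of single genes stayed on their side of the threshold, 79 lost a call and 28 gained one. A change of sign between values that were not called counts among the 1478. An example is Hoxa10 in treated against normal skin, at 0.42 in the main fit and as low as -0.06 with a library left out. Depth is unknown, and 3 libraries a group limit the precision. With a filter at a mean of 5 FPKM, which leaves 9 Hox genes to test, 5 differed from normal skin at 6 weeks and 6 at 20 weeks. Of all genes tested under this filter, 40.6% and 35.4% did. Without a filter, 0 were called in treated against fibrotic skin, where 5.16% of all genes were. A fit of the 6 libraries compared has fewer samples to estimate the spread. It called 11 genes at 6 weeks, 13 at 20 weeks and 1 between the fibrotic groups. In treated against fibrotic and in treated against normal skin it called 0. Of all tested genes it called 44.7%, 38.7%, 3.47%, 0.0218% and 1%, in that order. The main fit called 39.3%, 33.5%, 0.0363%, 15.3% and 20.7%. Why only the treated comparisons lost calls was not tested. With each library of a comparison left out in turn, the counts ran from 7 to 16 at 6 weeks and 7 to 14 at 20 weeks. They ran from 0 to 9 in treated against fibrotic skin and 3 to 13 in treated against normal skin. The share of all tested genes called was 25.4% to 33.2%, 22% to 25.8%, 0.0218% to 37.9% and 6.57% to 22.5%, in that order. The counts stayed at 0 between the fibrotic groups, where 0.0291% to 0.792% of all tested genes were called. Of the alternatives chosen after seeing the data, leaving out the 3 libraries with little muscle RNA gave 9 in treated against fibrotic and 4 in treated against normal skin, and the muscle covariate gave 5 in treated against fibrotic skin. All tested genes were called there at 33.2%, 8.7% and 22.8%, in that order. At a level of 0.5 FPKM, 24 genes were present in all libraries and 7 in some, and at 2 FPKM 8 were present in all.

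Replicate numbers were checked for pairing: deviations of same-numbered libraries correlated at -0.0205 on average (18 pairs, -0.35 to 0.291), against 0.0115 for the other 36 pairs. No pairing by number was seen. An average over so few libraries cannot exclude that some of them share a mouse or a pool. The labels give 5 samples a pool and name no batch. With the replicate block the counts were 10 at 6 weeks, 12 at 20 weeks, 0 between the fibrotic groups, 2 in treated against fibrotic skin and 10 in treated against normal skin. The share of all tested genes called was 36.4%, 30.7%, 0.0363%, 9.92% and 17.1%, in that order.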
